A study of Mus musculus with 17 samples.

Results

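The neurotransmitter receptor genes examined here were the genes whose symbols name subunits of GABA-A, glycine, ionotropic and metabotropic glutamate, serotonin, nicotinic, muscarinic, dopamine and alpha-adrenergic receptors. They were chosen by symbol alone, and no measured value entered the choice. With repeated positions taken once, the rule found 100 start sites of 97 genes, of 24084 start sites of 21359 genes in all. Of the 97 genes, 96 encode receptor subunits, and the other, Grid2ip, encodes a scaffold protein. There were 60 genes of ligand-gated channels and 36 of G-protein-coupled receptors. By the promoter classes in the deposited tables, 57 of the start sites were high-CpG, 22 intermediate-CpG, 11 low-CpG and 10 had no class.

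The study digested chromatin with micrococcal nuclease (MNase), an enzyme that cuts DNA between nucleosomes, and sequenced the fragments of mouse sperm and embryonic stem (ES) cells. The sperm swam out of cauda epididymis and vas deferens tissue of C57/B6J mice aged 10 weeks, and were then crosslinked with formaldehyde. The ES cells were the E14 line (129 X Ola), grown without feeder cells in serum and LIF, with no crosslinking stated in the labels. The groups used here were the supernatant of sperm at the study's standard digestion and the supernatant of ES cells, then 3 sperm digestion series. Those series were unspun sperm (0.5, 2, 10 and 50 units of MNase), sperm supernatant (1, 5, 20 and 100 units) and sperm pellet (1, 5, 20 and 100 units). No group carried a genetic change. The digestion of sperm nuclei used far less enzyme per cell than that of ES nuclei, per the labels' protocols. Strain, crosslinking and digestion therefore differed together with cell type, and their parts in any difference between sperm and ES cells cannot be told apart. Each group was 1 library, so no difference has a replicate check, no p-value is given, and every interval is a 95% exact (Clopper-Pearson) interval that covers counting error only. What was measured is DNA, and these promoters are in every cell, so no marker gene can check the cell type labels.

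Neurotransmitter receptors pass a chemical signal into a neuron or muscle cell. Ligand-gated channels assemble from several subunits around an ion pore and act within milliseconds, whereas G-protein-coupled receptors are single proteins that act more slowly through second messengers. Most of these genes are known for their use in the nervous system or in muscle, and their expression in ES cells or sperm was not measured here. In mature sperm most histones have been replaced by protamines, small arginine-rich proteins, and a minor share of the genome is still wrapped in nucleosomes. A promoter rich in CpG dinucleotides is often kept free of nucleosomes at its start site, and CpG-rich promoters of silent developmental genes are known in ES cells as targets of Polycomb proteins.

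The promoters of 6 genes are printed to show the range of base composition on which the results turn. Each runs from 250 bases before to 50 after the RefSeq start (300 bases, GRCm38.p6), 5′ to 3′ along the gene, with CpG dinucleotides in capitals. Grik3 and Chrna4 lay at the CpG-rich end and had an empty start site in sperm. Grm2, Chrna4 and Gabrp were among the genes with the largest deficit in sperm, whereas Glrb and Chrm2 were among those with the largest excess. The sequences are Grik3 (chr4:125490446-125490745, plus strand), Chrna4 (chr2:181039128-181039427, minus strand), Grm2 (chr9:106656060-106656359, minus strand), Glrb (chr3:80913611-80913910, minus strand), Chrm2 (chr6:36387834-36388133, plus strand) and Gabrp (chr11:33578908-33579207, minus strand).
Grik3: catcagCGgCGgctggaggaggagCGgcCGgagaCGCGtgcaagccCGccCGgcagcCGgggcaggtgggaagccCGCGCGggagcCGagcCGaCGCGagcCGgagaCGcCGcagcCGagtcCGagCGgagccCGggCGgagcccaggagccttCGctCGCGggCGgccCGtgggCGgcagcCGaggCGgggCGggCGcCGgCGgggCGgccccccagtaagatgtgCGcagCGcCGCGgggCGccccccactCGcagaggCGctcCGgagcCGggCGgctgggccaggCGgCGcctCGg
Chrna4: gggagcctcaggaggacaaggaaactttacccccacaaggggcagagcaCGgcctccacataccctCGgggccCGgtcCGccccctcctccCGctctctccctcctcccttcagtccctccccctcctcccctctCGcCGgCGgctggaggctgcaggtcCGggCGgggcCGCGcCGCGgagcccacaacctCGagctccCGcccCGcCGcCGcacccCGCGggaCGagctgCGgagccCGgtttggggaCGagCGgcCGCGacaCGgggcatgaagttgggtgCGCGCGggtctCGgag
Grm2: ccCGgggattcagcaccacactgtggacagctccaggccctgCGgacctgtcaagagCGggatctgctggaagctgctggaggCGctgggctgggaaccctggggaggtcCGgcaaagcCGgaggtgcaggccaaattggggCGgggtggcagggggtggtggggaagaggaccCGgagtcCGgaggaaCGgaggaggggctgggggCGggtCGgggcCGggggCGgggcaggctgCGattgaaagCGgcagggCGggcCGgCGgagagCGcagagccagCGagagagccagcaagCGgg
Glrb: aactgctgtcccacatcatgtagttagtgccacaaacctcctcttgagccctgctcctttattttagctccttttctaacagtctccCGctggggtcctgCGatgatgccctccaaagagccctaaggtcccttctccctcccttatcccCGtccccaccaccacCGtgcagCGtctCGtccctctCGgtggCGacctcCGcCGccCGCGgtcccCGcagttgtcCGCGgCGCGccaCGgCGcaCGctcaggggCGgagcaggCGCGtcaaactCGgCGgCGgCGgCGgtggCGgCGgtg
Chrm2: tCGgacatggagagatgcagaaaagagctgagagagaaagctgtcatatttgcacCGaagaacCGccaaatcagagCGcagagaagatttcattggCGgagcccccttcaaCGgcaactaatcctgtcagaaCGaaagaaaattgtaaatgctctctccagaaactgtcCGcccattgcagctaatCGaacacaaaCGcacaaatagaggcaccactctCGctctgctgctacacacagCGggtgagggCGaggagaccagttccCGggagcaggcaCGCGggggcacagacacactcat
Gabrp: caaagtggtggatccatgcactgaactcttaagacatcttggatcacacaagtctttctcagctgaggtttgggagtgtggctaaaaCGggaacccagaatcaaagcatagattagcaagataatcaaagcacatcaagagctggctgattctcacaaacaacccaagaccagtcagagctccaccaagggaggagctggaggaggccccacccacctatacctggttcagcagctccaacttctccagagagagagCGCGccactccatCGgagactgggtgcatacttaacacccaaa
The count of CpGs in these windows was 50 for Grik3, 33 for Chrna4, 22 for Grm2, 30 for Glrb, 16 for Chrm2 and 4 for Gabrp. RefSeq starts of GRCm38.p6 were not matched to the mm9 start sites of the deposited tables, so a window may be offset from the measured site.

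The standard sperm and ES libraries were deep enough for single promoters, and the digestion series were not. Fragments, of nucleosome length by the names of the pileup tables, were counted within 1000 bp of each start site as fragment equivalents (the summed signal divided by the sum that an isolated fragment gives). The standard sperm supernatant held 519467 of them, 21.6 per start site, and the ES supernatant held 774480, 32.2 per start site. The unspun libraries held 0.659 to 0.813 per start site, the sperm supernatants of the digestion series 0.449 to 1.03 and the pellets 0.142 to 0.853. Receptor genes were isolated in the genome: 1 of 97, Gabrg3, had another gene's start site within 1000 bp, compared with 2538 of 21359 genes (11.9%).

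Receptor promoters as a whole carried slightly less nucleosome-length DNA in sperm than in ES cells, relative to all promoters. The 97 genes had a median of 17.7 fragment equivalents in the sperm supernatant and 30.05 in the ES supernatant, against 19.2 in sperm and 32.05 in ES cells for all genes. On the log2 ratio of library shares, sperm over ES cells (pseudocount 1 fragment), the median was -0.18 for receptor genes, with quartiles of -0.67 and 0.09. The median over all genes was -0.06, with quartiles of -0.52 and 0.44. The pooled ratio over the receptor genes, without the pseudocount, was -0.20 (-0.28 to -0.11). The log2 ratio was below 0 in 63 of 97 receptor genes and in 11397 of 21359 genes.

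Large differences at single receptor promoters were about as frequent as at all promoters in the direction of less signal in sperm, and 2 genes differed in the other direction. A gene counted as different when it held at least 30 fragment equivalents in both libraries together and differed at least 2-fold. Of the 78 receptor genes with that depth, 6 were at least 2-fold lower in sperm, against 7.93% of all genes. The 6 were Grm2, Chrna4, Htr1b, Drd4, Gabrp and Drd2. A further 2, Grm5 and Gria1, were at least 2-fold higher in sperm, against 6.28% of all genes. The remaining 19 receptor genes were too shallow for the rule. By the interval of the ratio, 10 of the 78 lay below 0 (11.6% of all genes) and 5 above it (12.5% of all genes).

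The shift depended on the CpG class with which the receptor genes were compared. The 56 high-CpG receptor genes had a median log2 ratio of -0.36, and all high-CpG genes had -0.25. Of the 40 deep ones, 4 were at least 2-fold lower in sperm (background 11.1%) and 0 at least 2-fold higher (background 2.55%). The interval lay below 0 in 6 of the 40 (background 15%) and above 0 in 1 (background 4.42%). The 22 intermediate-CpG receptor genes had a median of -0.09, against 0.03 for that class. The 11 low-CpG receptor genes had a median of -0.26, against 0.24 for that class, and 10 of the 11 lay below the class median. Grm5 was the exception. Over all 3 classes, 54 receptor genes lay below the median of their class and 35 above it, split as 30 and 26 among high-CpG genes and 14 and 8 among intermediate-CpG genes. The 7 X-linked receptor genes (Gabra3, Gabre, Gabrq, Glra2, Glra4, Gria3 and Htr2c) had a median of -0.26, against 0.26 for all 925 X-linked genes. Their pooled interval, -0.74 to 0.07, held 0.

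**Figure D1:**
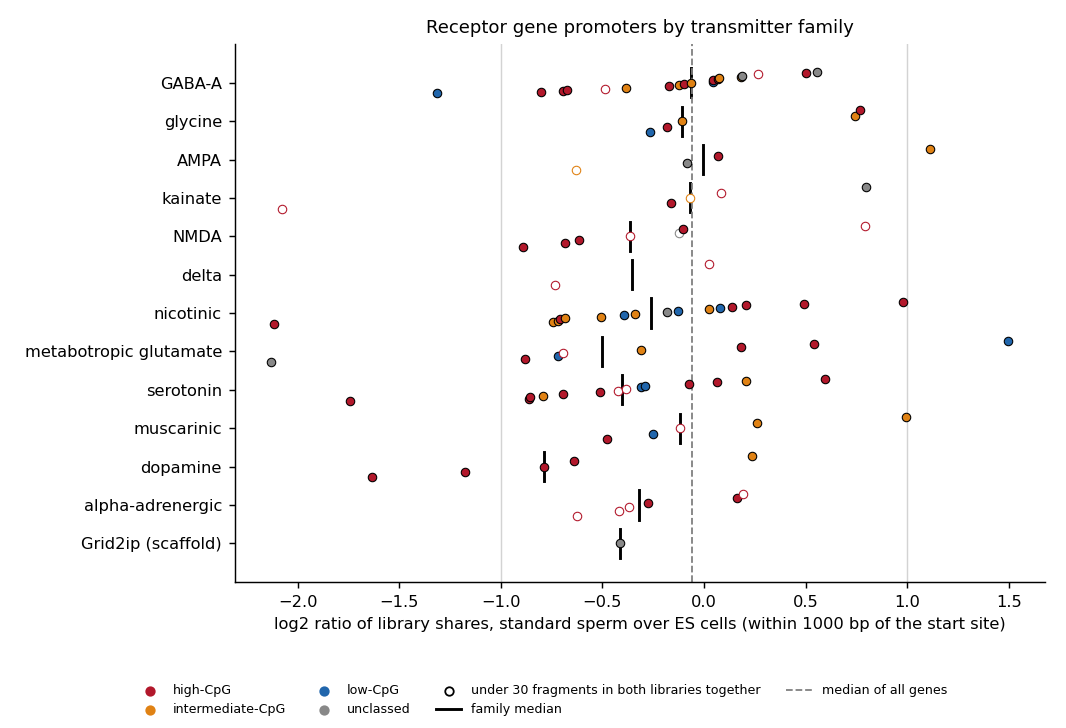
Each point is 1 receptor gene, placed by its log2 ratio of library shares in standard sperm over ES cells (x axis) and by transmitter family (y axis). Colour gives the CpG class, open points had under 30 fragment equivalents, short bars are family medians and the dashed line is the median of all genes, -0.06. Dopamine and metabotropic glutamate receptor genes have the lowest family medians, -0.79 and -0.50.

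GABA-A receptors are chloride channels that carry most fast inhibition in the brain. Their 19 genes had a median log2 ratio of -0.07 and a pooled ratio of -0.18 (-0.36 to -0.01), with 10 genes lower in sperm. Gabrp, whose pi subunit is found mostly outside the brain, held 17.7 fragments in sperm and 68.2 in ES cells, a log2 ratio of -1.31 (-2.18 to -0.57). Its deficit was -1.32 (-1.93 to -0.80) over the whole 2000 bp on each side, so it was not confined to the start site. The next lowest ratio was -0.80 (-1.77 to 0.09) for Gabrd, the delta subunit of receptors outside synapses, with 14.5 fragments in sperm and 39.4 in ES cells. The GABA-A gene with the most signal, counted here and for other families over both libraries together, was Gabra6, a subunit of cerebellar granule cells, with 43.05 fragments in sperm, 61.5 in ES cells and a ratio of 0.072 on the log2 scale.

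Most GABA-A genes lie in clusters that are thought to descend from an ancestral set of alpha, beta and gamma genes. The cluster on chromosome 5 (Gabrg1, Gabra2, Gabra4, Gabrb1) had a pooled log2 ratio of -0.16 (-0.59 to 0.24), with values of 0.18, -0.10, -0.70 and -0.17 in that order. The interval of each of these 4 genes held 0.

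Glycine receptors are the chloride channels of fast inhibition in spinal cord and brainstem. All 5 genes were deep, with a median log2 ratio of -0.11 and a pooled ratio of 0.31 (-0.05 to 0.66). Glrb, the beta subunit that ties the receptor to its synaptic scaffold, held 38.6 fragments in sperm and 33.7 in ES cells, a log2 ratio of 0.77 (0.07 to 1.48). Glra3, an alpha subunit of the spinal dorsal horn, held 38.5 in sperm and 34.1 in ES cells, a log2 ratio of 0.74 (0.03 to 1.45). The other 3 alpha subunit genes lay between -0.26 and -0.11, with intervals that held 0 and overlapped those of Glrb and Glra3. Glrb was the only high-CpG receptor gene among the deep ones whose interval lay above 0, against 4.42% of all high-CpG genes. Its start site was nearly empty in both libraries, with 0.727 fragments in sperm and 0.227 in ES cells between 200 bp upstream and 300 bp downstream, so its signal came from the surrounding DNA.

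Ionotropic glutamate receptors are the cation channels of fast excitation. The 4 AMPA receptor genes had a median log2 ratio of -0.01. Gria1, which encodes an AMPA subunit that is inserted during synaptic plasticity, held 24.4 fragments in sperm and 16.5 in ES cells, a log2 ratio of 1.11 (0.19 to 2.17), the second highest among deep receptor genes. Over the whole 2000 bp on each side its ratio was 0.24 (-0.37 to 0.87). Gria2, whose subunit limits calcium entry, had the most AMPA signal, with 26.5 fragments in sperm, 42.3 in ES cells and a ratio of -0.082 on the log2 scale.

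The emptiest promoter of the set belonged to a kainate receptor gene, Grik3. Grik3 had 2.36 fragments in sperm and 3.73 in ES cells within 1000 bp, the lowest count of any receptor gene in both libraries. Grik4 had 2.59 in sperm and 21.5 in ES cells, a log2 ratio of -2.07 (-4.68 to -0.56), and stood outside the 2-fold count only because it fell short of 30 fragments. Both are high-CpG genes of kainate receptor subunits. Grik2, the kainate gene with the most signal, held 24.2 in sperm and 41 in ES cells (log2 -0.16). Grik1 held 19 in sperm and 16.1 in ES cells (log2 0.80, -0.21 to 1.88).

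NMDA receptors need glycine as well as glutamate to open and are blocked by magnesium at rest. Of their 7 genes, 6 had lower values in sperm, the median log2 ratio being -0.36 and the pooled ratio -0.41 (-0.81 to -0.03). Grin3b, a glycine-binding subunit of motor neurons, had the most signal, with 15.8 fragments in sperm, 45.3 in ES cells and a ratio of -0.89 on the log2 scale (-1.84 to -0.06). Grin2b, a subunit of the developing brain, was the exception, with 13.5 in sperm and 11.5 in ES cells (log2 0.79, -0.42 to 2.04). Grid1, a delta receptor gene, was shallow, with 4.45 in sperm and 7.0 in ES cells. Grid2ip, the scaffold gene, held 13.3 in sperm and 27.5 in ES cells (log2 -0.41), and its other start site, 6570 bp away, had a log2 ratio of -0.85 with an interval from -2.49 to 0.28.

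Nicotinic receptors are cation channels opened by acetylcholine, in muscle at the nerve endplate and in neurons on many cell types. All 16 genes were deep, with a median log2 ratio of -0.26 and a pooled ratio of -0.29 (-0.47 to -0.11). The 11 neuronal genes had a pooled ratio of -0.34 (-0.57 to -0.12) and the 5 muscle genes (Chrna1, Chrnb1, Chrnd, Chrne, Chrng) had -0.18 (-0.51 to 0.16). The 2 intervals overlap. Chrna4, which with Chrnb2 forms the main high-affinity receptor of the brain, held 4.27 fragments in sperm and 33.1 in ES cells, a log2 ratio of -2.12 (-4.43 to -0.98). Within 500 bp Chrna4 held 0.409 in sperm and 10.8 in ES cells, and over the whole span 21.4 in sperm and 80.95 in ES cells (log2 -1.40, -2.24 to -0.77). It was thus low in sperm at each of these widths. Its partner Chrnb2 held 20.1 in sperm and 50.3 in ES cells (log2 -0.71, -1.57 to 0.03).

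The other nicotinic genes spread over both directions. Chrne, the subunit of the adult muscle receptor, held 18.5 fragments in sperm and 47.6 in ES cells (log2 -0.74, -1.71 to -0.03), whereas Chrng, its fetal counterpart, held 14.7 in sperm and 22 in ES cells (log2 0.02). Chrna7, whose subunit forms receptors by itself, was high in sperm with 18.3 fragments and 13.6 in ES cells (log2 0.98, -0.15 to 2.06), and over the whole span its ratio was 1.15 (0.56 to 1.78). Chrna6, a gene of midbrain dopamine neurons, had the most signal, with 37.0 in sperm and 79.4 in ES cells (log2 -0.51, -1.12 to 0.06). In the cluster on chromosome 9, the ratio was 0.14 for Chrna5, 0.49 for Chrna3 and -0.72 (-1.61 to 0.03) for Chrnb4, with a pooled ratio of -0.05 (-0.49 to 0.39), although products of these 3 genes assemble in autonomic ganglia.

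The G-protein-coupled receptor genes had a lower median than the channel genes over all classes and among high-CpG genes, but not in the other 2 classes. The 36 genes had a median log2 ratio of -0.40 and the 60 channel genes -0.12, while the pooled ratios were -0.22 (-0.36 to -0.07) and -0.19 (-0.29 to -0.08). Among high-CpG genes, the 26 of G-protein-coupled receptors had a pooled ratio of -0.42 (-0.61 to -0.24) and the 30 of channels had -0.21 (-0.38 to -0.05). The intervals overlap in both comparisons. Among intermediate-CpG genes the pooled ratio was 0.13 (-0.15 to 0.41) for 6 G-protein-coupled receptor genes and -0.17 (-0.36 to 0.01) for 16 channel genes. Among low-CpG genes it was 0.45 (-0.05 to 0.92) for 3 G-protein-coupled receptor genes and -0.32 (-0.57 to -0.07) for 8 channel genes. Grm5 held 46 of the 70.3 sperm fragments of those 3 genes.

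Dopamine receptors, which act in movement and reward, had the lowest median of any family, -0.79, with a pooled log2 ratio of -0.76 (-1.21 to -0.32). Drd4 held 5.86 fragments in sperm and 30.7 in ES cells, a log2 ratio of -1.63 (-3.34 to -0.51). Drd2, the target of classical antipsychotic drugs, held 12 in sperm and 42.7 in ES cells, a log2 ratio of -1.17 (-2.32 to -0.32). Within 500 bp Drd2 held only 3.32 in sperm and 4.32 in ES cells (log2 0.36, -2.53 to 2.80), too few to show whether the start site shared the difference. Drd5 (8.91 in sperm, 24.5 in ES cells) and Drd1 (10.7 in sperm, 26.2 in ES cells), the receptors that stimulate adenylyl cyclase, had ratios of -0.79 and -0.64 with intervals that held 0. These 4 genes are high-CpG, and their pooled ratio was -1.15 (-1.69 to -0.60), against a pooled ratio of -0.24 (-0.25 to -0.23) for the class. Drd3, the intermediate-CpG gene, held 23.5 in sperm and 30.05 in ES cells (log2 0.24, -0.58 to 1.08).

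Serotonin receptors are G-protein-coupled except for the channel subunits Htr3a and Htr3b. Of the 14 genes, 11 had lower values in sperm, the median log2 ratio being -0.40 and the pooled ratio -0.35 (-0.56 to -0.14). Htr1b, an autoreceptor that restrains transmitter release, held 4.95 fragments in sperm and 28.7 in ES cells, a log2 ratio of -1.74 (-3.69 to -0.57). Htr5a held 21.7 in sperm and 60.5 in ES cells (log2 -0.86, -1.65 to -0.15), and its relative Htr5b held 11.4 in sperm and 32.4 in ES cells (log2 -0.86, -2.10 to 0.06). Htr2a, the receptor through which classical hallucinogens act, held 22.3 in sperm and 59.2 in ES cells (log2 -0.79, -1.62 to -0.12). Htr1a, an inhibitory autoreceptor of the raphe, lay at the other end with 33.2 in sperm and 32.8 in ES cells (log2 0.60, -0.16 to 1.32). Htr3b had the most signal of the family, 41.5 in sperm and 76.5 in ES cells (log2 -0.29). Htr2b, known for its part in heart valve disease, held 50.7 in sperm and 65.7 in ES cells (log2 0.21).

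Metabotropic glutamate receptors held both extremes of the whole set. Grm2, a presynaptic receptor that lowers glutamate release, held 3.27 fragments in sperm and 26.9 in ES cells, a log2 ratio of -2.13 (-4.96 to -0.89). This deficit was local, with a ratio of -0.36 (-1.10 to 0.26) over the whole span, where Grm2 held 30.2 in sperm and 54.6 in ES cells. Grm5, a postsynaptic receptor that releases calcium from stores, held 46 in sperm and 23.9 in ES cells, a log2 ratio of 1.49 (0.77 to 2.29), and 0.86 (0.45 to 1.29) over the whole span. Grm4, which restrains glutamate release, held 9.95 in sperm and 29.1 in ES cells (log2 -0.88, -2.16 to 0.12). The median of the 8 genes was -0.50 and their pooled ratio -0.03 (-0.35 to 0.29), which differ because Grm5 gives much of the sperm signal of the family.

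Muscarinic receptors carry the slow actions of acetylcholine. Chrm2, the receptor by which the vagus slows the heart, held 48.5 fragments in sperm and 36 in ES cells, a log2 ratio of 0.99 (0.34 to 1.66), and 0.78 (0.35 to 1.21) over the whole span. The other 4 genes lay between -0.48 for Chrm4 and 0.26 for Chrm5, with intervals that held 0. The pooled ratio of the family was 0.27 (-0.10 to 0.64). Of the 6 alpha-adrenergic receptor genes, all high-CpG, 2 were deep, and the interval of every one held 0. Adra1a, which contracts smooth muscle, had the most signal, with 32.6 in sperm and 43.7 in ES cells (log2 0.17). Adra1d, another receptor of this subgroup, had 3.14 in sperm and 6.95 in ES cells.

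The nucleosome-length signal dipped at the start sites of high-CpG receptor genes in both cell types, with values above those of all high-CpG promoters. Signal per base was divided by that of the flanks, 1000 to 2000 bp away on each side. In the 200 bp upstream, the 57 receptor start sites had 0.372 (0.283 to 0.486) of the flank level in sperm and 0.568 (0.471 to 0.680) in ES cells. All 10576 high-CpG start sites had 0.291 in sperm and 0.346 in ES cells there. In the 300 bp downstream, receptor start sites had 0.247 (0.185 to 0.319) in sperm and 0.376 (0.311 to 0.450) in ES cells, and all high-CpG start sites had 0.169 in sperm and 0.316 in ES cells. The value of all high-CpG promoters lay below the interval of the receptor genes upstream in ES cells and downstream in sperm, and within it for the other 2 pairs. The receptor promoters that fill the dip in ES cells were few: among them Adra1a held 18 fragments between 200 bp upstream and 300 bp downstream and Glra1 held 16.2, against a median of 3.39 over the 56 genes.

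The dip of receptor genes also reached farther into the gene. From 500 to 1000 bp downstream, high-CpG receptor start sites had 0.512 (0.441 to 0.595) of the flank level in sperm and 0.679 (0.606 to 0.757) in ES cells. All high-CpG start sites had recovered to 0.660 in sperm and 0.805 in ES cells over the same stretch, above the intervals of the receptor genes. On the upstream side, from 1000 to 500 bp, the receptor genes had 0.847 (0.749 to 0.954) in sperm and 0.991 (0.900 to 1.09) in ES cells, against 0.872 in sperm and 0.969 in ES cells for the class. The dip of the receptor genes was therefore lopsided in both libraries, longer on the transcribed side. All high-CpG start sites were lopsided in the same direction, to a lesser degree by these values. The stretch was chosen after the profile had been seen.

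**Figure D2:**
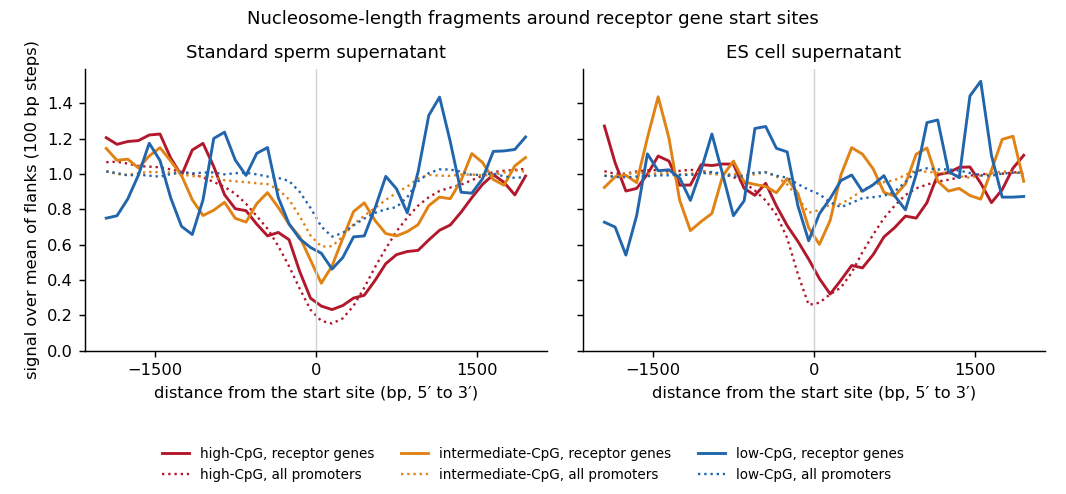
Nucleosome-length signal in 100 bp steps (y axis, divided by the mean of the flanks) against distance from the start site (x axis, bp, 5′ to 3′) in standard sperm, left, and ES cells, right. Solid lines are receptor genes and dotted lines all promoters of the class. High-CpG receptor genes reach their lowest value 100 to 200 bp downstream, 0.233 in sperm and 0.321 in ES cells, and climb back more slowly on the downstream side than the class.

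Intermediate- and low-CpG receptor genes had shallower dips than high-CpG ones, with values in sperm below those of their classes. Upstream, the 22 intermediate-CpG receptor start sites had 0.578 (0.422 to 0.777) of the flank level in sperm and 0.792 (0.620 to 1.00) in ES cells, with class values of 0.706 in sperm and 0.823 in ES cells. Downstream they had 0.499 (0.38 to 0.650) in sperm and 0.778 (0.633 to 0.944) in ES cells, with class values of 0.608 in sperm and 0.817 in ES cells. The class values lay within these intervals. The 11 low-CpG receptor start sites had 0.608 (0.360 to 0.937) upstream in sperm and 0.720 (0.504 to 1.02) in ES cells, against 0.853 in sperm and 0.926 in ES cells for the class. By gene, start site over flanks was lower in sperm than in ES cells in 37 of 56 high-CpG, 17 of 22 intermediate-CpG and 8 of 11 low-CpG receptor genes. For all genes of these classes the counts were 6186 of 9981, 1845 of 2873 and 1571 of 2686.

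Individual high-CpG receptor promoters ranged from empty to well covered at the start site. Fewer than 1 fragment lay between 200 bp upstream and 300 bp downstream in 21 of 56 genes in sperm (37.5%) and in 13 of 56 in ES cells (23.2%), against 41.7% in sperm and 22.9% in ES cells for all high-CpG genes. Grid1, Grik3 and Grik4 held 0 in both libraries, while Adra1d and Chrna4 held 0 in sperm and 0.636 and 3.55 in ES cells. At the other end, Htr1d, a receptor targeted by migraine drugs, had a start site at 2.55 times its flanks in sperm and 3.66 times in ES cells. Adra1a had 2.43 times in sperm and 3.06 times in ES cells, and Adra2c, a presynaptic receptor that restrains noradrenaline release, 1.02 times in sperm and 2.25 times in ES cells. The same 3 genes were thus the highest in both cell types.

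**Figure D3:**
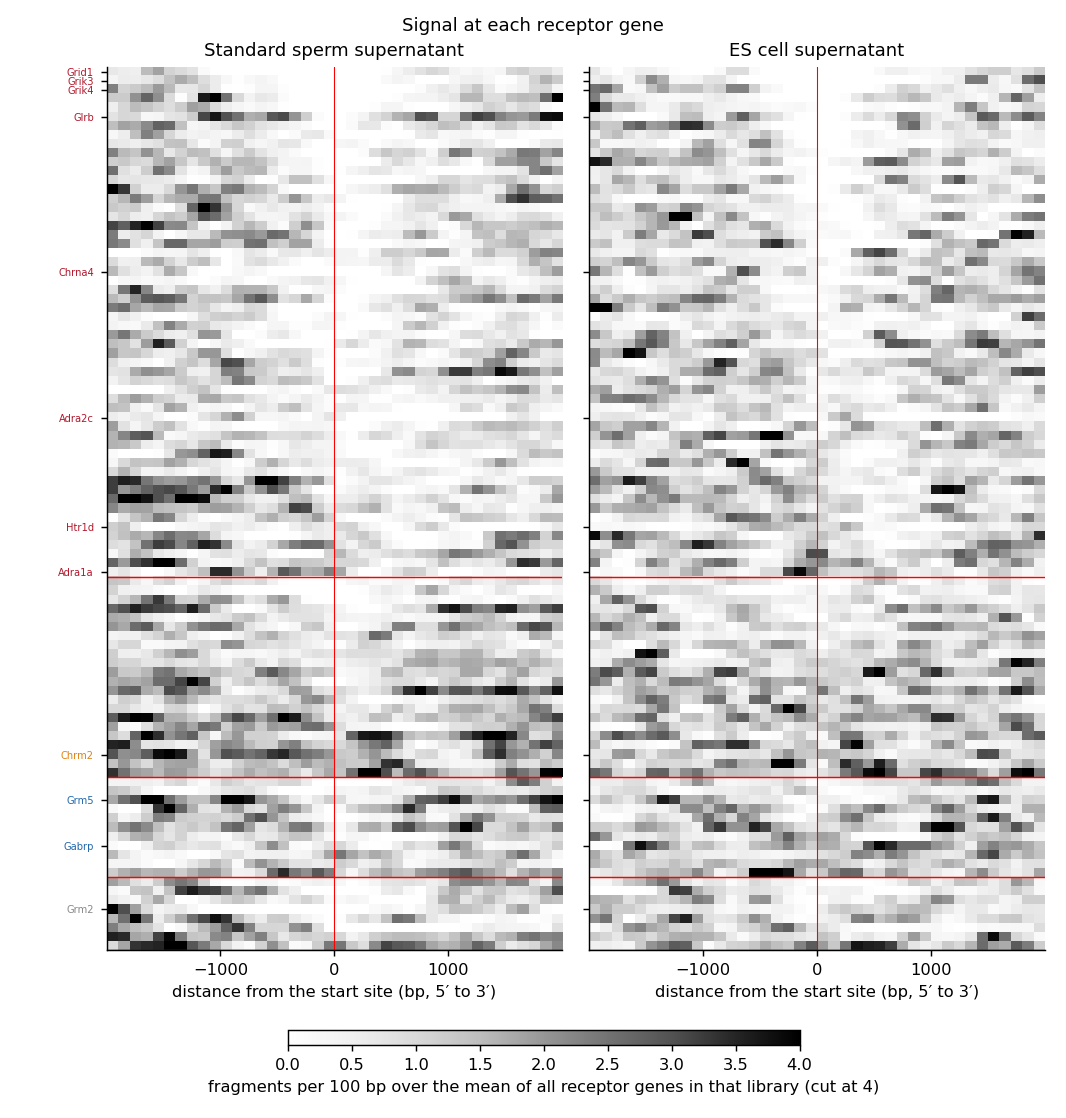
Nucleosome-length signal of each receptor gene (rows, grouped by CpG class from high at the top and ordered by start-site signal within it, with some of the genes described in the text labelled) against distance from the start site (x axis, bp) in standard sperm, left, and ES cells, right, with darker shades for more fragments per 100 bp over the mean of all receptor genes in that library. White columns at the start site mark the high-CpG genes at the top, among them Grid1, Grik3 and Grik4 with 0 fragments there in both libraries.

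CpG content followed the emptiness of the start site across receptor genes, and hardly the difference between cell types. RefSeq promoters were taken only for genes with a single promoter entry, which were 60 of the 97 genes. The count of CpGs correlated with start-site signal over flanks at r = -0.59 (Spearman rho = -0.66) in sperm and r = -0.59 (rho = -0.67) in ES cells, over 60 genes that share each library and its base composition bias. With the log2 ratio of sperm over ES cells the correlation was r = -0.12 (rho = -0.04). Grik3, with 50 CpGs and 82% G and C, was empty in both libraries, and Gabrp, with 4 CpGs, had a start site at 0.842 of its flanks in sperm and 0.911 in ES cells. Glrb (30 CpGs), with a nearly empty start site, and Chrm2 (16 CpGs), at 0.758 in sperm and 1.08 in ES cells, both had more signal in sperm, so the direction did not go with CpG count in these genes. The 34 high-CpG receptor promoters among the 60 held a median of 20 CpGs (range 3 to 50), against 22 for all high-CpG promoters with a single entry.

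**Figure D4:**
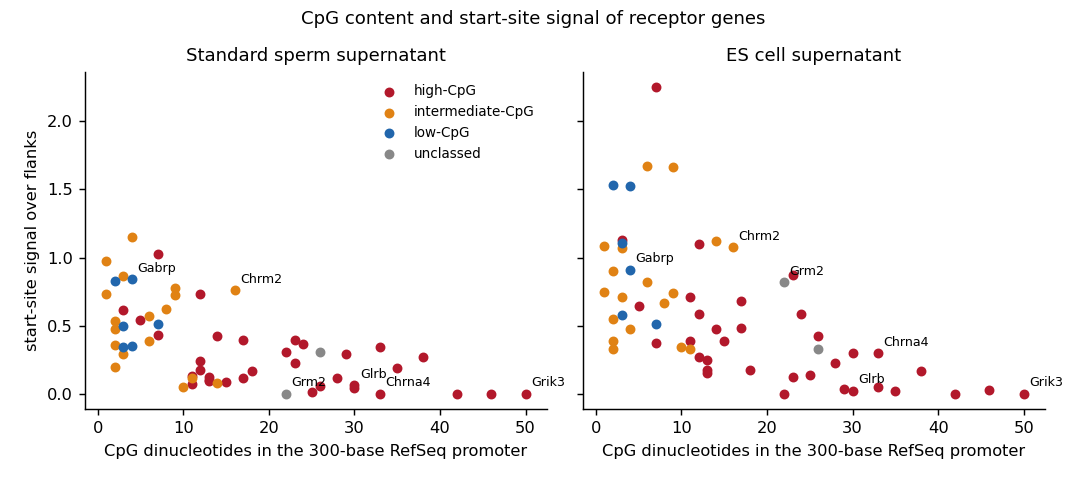
CpG dinucleotides in the RefSeq promoter window (x axis) against start-site signal over flanks (y axis) for 60 receptor genes in standard sperm, left, and ES cells, right, coloured by CpG class with the printed promoters named. Genes with more CpGs have emptier start sites in both cell types (r = -0.59 in each).

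Short motifs in the 60 promoter windows were searched on both strands and compared with 22862 RefSeq promoters of the same length. These too were of genes with a single entry. The GC box GGGCGG, a letter pattern of the factor Sp1, was present in 31 receptor promoters (51.7%), against 35.2% of all promoters. Among the 34 high-CpG ones it was present in 23 (67.6%), against 71.1% of all high-CpG promoters. TATAAA, the TATA box, was present in 4 (Adra2a, Chrnb1, Glra2 and Grin3b; 6.67%), against 14.8%, but among the high-CpG ones in 3 of 34 (8.82%), against 6.53%. TGACGTCA, the cAMP response element, was found in 0, against 1.85%. The motif letters can overlap CpGs, and their presence in a window is a description of the sequence only.

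Other genes of neurotransmission, taken from a list of enzymes, transporters, scaffolds and receptors outside the symbol rule, were also lower in sperm on balance, most clearly the high-CpG ones. Of the 67 genes listed, 66 were found. Their median log2 ratio was -0.31 and their pooled ratio -0.17 (-0.27 to -0.07), with 44 lower in sperm. The pooled ratio was -0.53 (-0.70 to -0.36) for the 34 high-CpG genes. It was 0.15 (-0.06 to 0.36) for the 10 intermediate-CpG genes and -0.06 (-0.35 to 0.22) for the 7 low-CpG genes. Of the 52 deep ones, 9 were at least 2-fold lower in sperm (background 7.93%) and 2 at least 2-fold higher (background 6.28%). Among the 23 deep high-CpG genes, 6 were at least 2-fold lower (background 11.1% for that class). The lowest deep gene was Glul, which makes glutamine from glutamate, with 6.09 fragments in sperm and 36.7 in ES cells (log2 -1.83, -3.58 to -0.79). The other 8 were Dlg4, the main scaffold of the postsynaptic density, Gad1, which makes GABA, the vesicle transporters Slc18a2 and Slc18a3, the GABA-B subunit Gabbr1 and the adenosine receptors Adora1, Adora2a and Adora2b. The 2 higher genes were Bche, a cholinesterase, with 61.9 in sperm and 33.8 in ES cells (log2 1.43, 0.82 to 2.09), and Nlgn1, a synaptic adhesion protein, with a log2 ratio of 1.06. By role, the medians were -0.22 for 11 synthesis genes, -0.32 for 19 transporters, -0.21 for 6 breakdown enzymes, -0.33 for 18 scaffolds and -0.74 for 12 other receptors.

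Across the sperm digestion series, receptor promoters held more than the share of an average promoter in unspun sperm at 2, 10 and 50 units, and a share whose interval held 1 in every supernatant and pellet library. A value of 1 means that receptor start sites held as many fragments per site as all start sites of that library. Those were 100 receptor sites of 24084 in unspun sperm, and 90 of 16482, all with a CpG class, in supernatant and pellet. In unspun sperm the value was 1.21 (0.98 to 1.47) at 0.5 units, 1.44 (1.19 to 1.72) at 2 units, 1.26 (1.00 to 1.56) at 10 units and 1.44 (1.17 to 1.76) at 50 units. In the supernatant series it was 1.02 (0.76 to 1.35), 1.03 (0.75 to 1.40), 1.23 (0.98 to 1.55) and 1.15 (0.94 to 1.39) at 1, 5, 20 and 100 units. In the pellet series it was 1.12 (0.60 to 1.83), 0.78 (0.51 to 1.17), 1.03 (0.73 to 1.41) and 1.21 (0.98 to 1.48) at the same units. Apart from the pellet at 5 units, every supernatant and pellet interval overlapped every unspun interval, and the series were not tested against each other. The unspun intervals lay above 1 at 2, 10 and 50 units, whereas the standard sperm supernatant had 0.88 (0.84 to 0.92) and the ES supernatant 1.00 (0.97 to 1.04). Set against an average promoter of the same CpG class, the unspun values were 1.13 (0.90 to 1.39), 1.42 (1.17 to 1.71), 1.20 (0.94 to 1.49) and 1.29 (1.03 to 1.59) at 0.5, 2, 10 and 50 units, so the interval at 10 units then held 1. On that scale the standard sperm supernatant had 0.85 (0.81 to 0.89) and the ES supernatant 0.95 (0.92 to 0.99), both below 1. On log2 values, the slope per doubling of units was 0.026 ± 0.020 (counting SE) in unspun sperm, 0.035 ± 0.025 in the supernatant and 0.032 ± 0.041 in the pellet, and the interval of each held 0. The titles of the pellet libraries give 1, 5, 20 and 100 units and were followed, but the descriptions of those titled 5 and 20 units give 2 and 5 units.

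**Figure D5:**
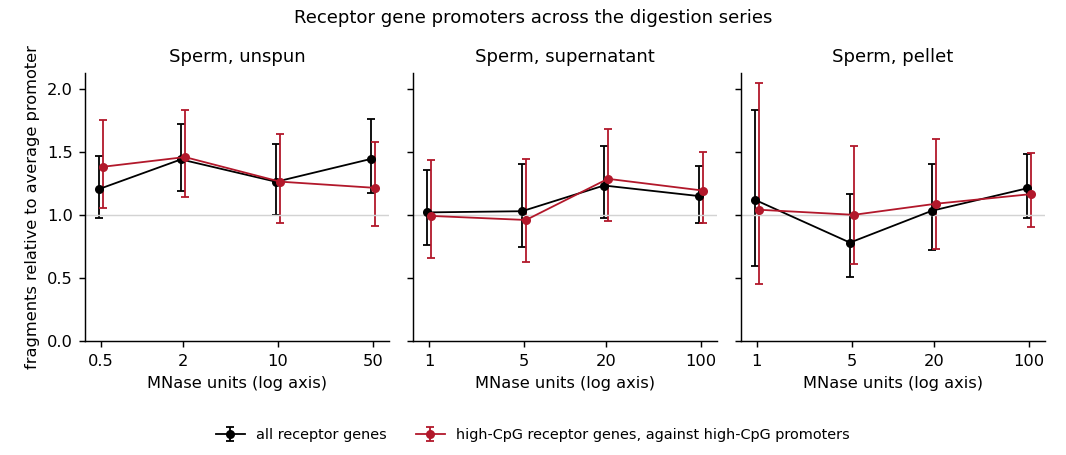
Fragments at receptor start sites relative to an average promoter of the same library (y axis) against MNase units (x axis, log scale) in unspun sperm, sperm supernatant and sperm pellet. Black points are all receptor genes and red points high-CpG receptor genes against high-CpG promoters, bars are 95% counting intervals, and most of them hold 1.

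The dip at high-CpG receptor start sites that marked the standard sperm library was not resolved at any dose of the series. Every receptor interval there held 1 or lay above it. Start site over flanks, taken from 200 bp upstream to 300 bp downstream, was 0.799 (0.38 to 1.45), 1.05 (0.556 to 1.81), 1.76 (0.893 to 3.33) and 1.54 (0.818 to 2.84) in unspun sperm at 0.5, 2, 10 and 50 units. It was 0.828 (0.281 to 2.03), 1.15 (0.505 to 2.36), 1.51 (0.783 to 2.70) and 2.11 (1.19 to 3.59) in the supernatant at 1, 5, 20 and 100 units. Start site over flanks was 0.297 (0.243 to 0.359) in the standard sperm supernatant and 0.453 (0.396 to 0.516) in ES cells. The supernatant and pellet series are read counts whose names give no fragment length, unlike the pileup signal of the other libraries. Their values are therefore not a like measure. All high-CpG promoters moved likewise, with 0.626 and 1.67 at the lowest and highest unspun dose and 0.717 and 1.46 at those of the supernatant. These receptor values rest on 6 to 22.3 start-site fragments per library. In the pellet they rest on 1 to 20 fragments, with ratios of 0.60 at 1 unit and 1.40 (0.799 to 2.37) at 100 units.

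The share of receptor promoters did not differ detectably between supernatant and pellet at the units of the titles. By their descriptions the pellets titled 5 and 20 units had 2 and 5 units, so those pairs may not be matched. The log2 ratio of supernatant over pellet was -0.13 (-0.97 to 0.88) at 1 unit, 0.40 (-0.36 to 1.17) at 5 units, 0.26 (-0.30 to 0.87) at 20 units and -0.07 (-0.49 to 0.34) at 100 units. These ratios rest on 49.7, 41.7, 77.7 and 106.3 fragments in the supernatants and 14.3, 24.7, 38.3 and 93 in the pellets, over the 90 receptor start sites in those tables. In both 1-unit libraries most isolated runs of signal covered 1 or 2 bins (89.4% in each, against 15.3% to 30.2% in the others). The median sum of an isolated run was 2 in the 1-unit pellet, below the divisor of 3, so its fragment equivalents may be too low. That median was 3 in the 1-unit supernatant, and 4 in the supernatants at 5 and 100 units, whose fragment equivalents may be too high.

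Single receptor promoters were at the limit of detection in the series. Summed over 4 unspun libraries the median promoter held 3.84 fragments, and over 4 libraries each the median was 2.83 in the supernatant and 1.5 in the pellet. Adra2b, an alpha-adrenergic receptor gene, was highest in the unspun series with 11.5 fragments, Drd5 in the supernatant with 9.0 and Gria4, an AMPA receptor gene, in the pellet with 8.33. Glra2, an X-linked glycine receptor gene, was listed at 0 in all 12 libraries of the series, although it held 19.05 fragments in the standard sperm supernatant and 31.3 in ES cells. No order of single genes was read from these counts.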

How the data were processed

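MNase fragments of mouse sperm and ES cells were aligned to mm9, with Bowtie and SAMtools 0.1.16 named in the submitters' processing notes. The authors deposited, per start site, pileup signal in 200 bins of 20 bp (ES and standard sperm supernatants, unspun series) and read counts in 200 bins that overlapping rows showed to be 50 bp wide (supernatant and pellet series). No source used here gives how the authors scaled the deposited signal. Signal was divided by 22, and deposited counts by 3, the usual sum of an isolated fragment. Symbols came from RefSeq (GRCm38.p6, names only), repeated positions were taken once, and each gene was represented by its start site of highest mean signal. Named genes were the 10 highest and 10 lowest log2 ratios with at least 30 fragments, the fullest gene of each family, the 3 highest and 3 lowest high-CpG start sites, members of 4 clusters and genes with several start sites. Other genes with values were named after these had been seen. Some genes that the rule names are not reported here. Members and lists were chosen with earlier results of these data known. Windows, minimum depth, pseudocount, flanks and doses were varied. The scripts were tested on simulated data, with Python 3.11.15, numpy 2.4.6, pandas 2.3.3 and scipy 1.17.1. The ES unspun, sperm input and panH3 ChIP samples were not analysed here. Reads carry no molecular identifiers.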

Additional observations from a re-analysis of the deposited data

How the results depend on the processing

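Of 81 values recomputed under other settings, 61 moved by less than their counting interval or 1.5 times, 19 moved by more and 1, the median within 200 bp, turned positive. In all, 4 values took the other sign, the others being the pellet slope and 2 ratios at 1 unit given here. The median log2 ratio of receptor genes was 0.071 within 200 bp, where no gene reached 30 fragments, and -0.33 within 500 bp, against -0.18 within 1000 bp. The count of genes at least 2-fold lower in sperm was 0 within 200 bp, 3 within 500 bp, 2 over the whole span and 1 with a minimum of 60 fragments, and the count at least 2-fold higher was 0, 1, 1 and 1 under the same settings. With flanks of 500 to 1000 bp, start site over flanks of high-CpG receptor genes was 0.547 upstream and 0.363 downstream in sperm, and 0.680 and 0.450 in ES cells. The pellet slope was 0.351 within 200 bp, 0.169 within 500 bp, 0.145 without the lowest dose and -0.032 without the highest, against 0.032. The log2 ratio of supernatant over pellet within 200 bp was 1.87 at 1 unit and 1.58 at 5 units, and within 500 bp 0.33 at 1 unit and 1.44 at 5 units, against -0.13 and 0.40 within 1000 bp. Narrow windows hold fewer fragments, and no other cause was tested. No paired analysis was possible because each group holds 1 library. At this depth the interval of most single promoters held 0, and the digestion series gave pooled values only.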
